A study of Mus musculus with 14 samples.

Results

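The transcripts described here are those of 10 genes that make, break down or sense prostaglandins, chosen by name from the 30503 genes of the count table. They are Ptgs1, Ptgs2, Ptgis, Ptges and Hpgd on the enzyme side, and Ptgir, Ptger1, Ptger2, Ptger4 and Ptgfr on the receptor side. The group was picked because Ptgis was the member that stood furthest above Fgfr3-WT in the clones with p53 deleted, so all values set against Fgfr3-WT are given for these genes as descriptions, without a test. RNA was sequenced from 14 cultured clones, each expanded from a single tdTomato+ skeletal cell of mouse femoral marrow after tamoxifen at postnatal day 21 (P21). The 5 Fgfr3-WT clones carried Fgfr3-creER; R26R(tdTomato/+), were isolated at P23 and were collected at passage 8. The 5 Fgfr3-p53 cKO (P28) clones carried Fgfr3-creER; Trp53fl/fl; R26R(tdTomato/+), were isolated at P28 and were also collected at passage 8. The 4 Fgfr3-p53 cKO (P4M) clones had the same genotype, came from mice 4 months of age and were collected at passage 6 to 8. Fgfr3-creER drove recombination in all 3 groups, so the clones stand for cells that used this driver at the time of tamoxifen and then survived serial passage. Labels do not say which clones share a mouse, and p-values therefore measure the spread between these clones. The Fgfr3-WT libraries came from 1 library submission and all cKO libraries from another, so genotype and submission cannot be told apart. Ages and genotypes differ together as well between Fgfr3-WT and the cKO groups. The paper reports faster growth and better survival over serial passage for the cKO clones. The same passage number therefore does not mean the same time in culture. Time in culture and the selection of surviving clones thus also differ with genotype, and their part in the values was not tested.

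Prostaglandins are made from arachidonic acid that phospholipases and other lipases release from membranes. The cyclooxygenases, of which Ptgs1 encodes the widely expressed form (COX-1) and Ptgs2 the inducible form (COX-2), turn it into prostaglandin H2, and terminal synthases then convert this into single products, such as prostacyclin by Ptgis and prostaglandin E2 by Ptges. In bone, prostaglandin E2 is known to act on osteoblast lineage cells through the receptors of the Ptger genes, and Ptgs2 is a well-studied gene of fracture repair and of the response to load.

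The depth was 25688946 to 52857424 counts per clone. Of the 10 genes, 9 had enough counts to be fitted together with the 17358 genes tested, and Ptgir did not. Trp53, which the cKO design deletes, separated the groups as labelled. It lay between 38.1 and 59.7 TPM, the deposited length-scaled level, in the Fgfr3-WT clones (median 45.01), between 2.31 and 2.80 TPM in the P28 clones (median 2.51) and between 1.55 and 2.09 TPM in the P4M clones. Cdkn1a, a p53 target that halts the cell cycle, was at 150 to 279 TPM in Fgfr3-WT and at 12.9 to 54.7 TPM in P28 clones. In P4M clones it was at 82.5 to 220.3 TPM, a range that overlapped Fgfr3-WT.

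The clones did not all carry the same lineage markers. The 6 osteoblast markers summed to 18.7 to 449 TPM in Fgfr3-WT, to 4104 to 7138 TPM in P28 and to 3818 to 16690 TPM in P4M clones, with Col1a1 the most abundant in every cKO clone. Within the P28 group, Sp7, a transcription factor needed for osteoblasts, was at 1.98, 5.54 and 3.30 TPM in replicates 1 to 3 and at 175 TPM in both replicates 4 and 5. Bglap, which encodes osteocalcin, showed the same split, with 4.47, 1.71 and 3.34 TPM against 852 and 954 TPM. Other libraries that stood apart included Fgfr3-WT replicate 5, with Sp7 at 19.4 TPM where the remaining Fgfr3-WT clones were at or below 0.10 TPM, and Fgfr3-WT replicate 1, where Alpl was listed at 0. P4M replicate 3 had the lowest osteoblast sum of its group, 3818 TPM, and Lepr, a reticular marker, at 0.09 TPM against 9.33 to 44.01 TPM in the other P4M clones. Chondrocyte markers summed to 494 to 6471 TPM in Fgfr3-WT, to 66.3 to 472 TPM in P28 and to 13.5 to 202 TPM in P4M clones. The 6 reticular markers, led by Cxcl12 in every cKO clone, summed to 36.1 to 254.5 TPM, 285 to 453 TPM and 93.9 to 308 TPM in the same order of groups. Of the 5 tested in cKO against Fgfr3-WT, edgeR called 2 higher (Lepr and Ebf3) and 1 lower (Foxc1, log2 fold change -1.03). This stands beside 23.1% and 25.7% of all tested genes. Cxcl12 itself was not called (2.45, adjusted p = 0.148, edgeR), and neither was Kitl (-0.94). In these bulk clones, fewer cells of a type and less RNA per cell cannot be told apart.

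Upstream sequence is shown for Ptgs2 and Ptger4, the 2 members besides Ptgis with the largest positive fold changes of both cKO groups together against Fgfr3-WT, with all clones in the fit. Both are the 250 bases before the transcript start in RefSeq on GRCm38.p6, 5′ to 3′ on the gene's strand, at chr1:150099781-150100030 on the plus strand for Ptgs2 and at chr15:5244188-5244437 on the minus strand for Ptger4. Capitals mark the motifs found.
Ptgs2: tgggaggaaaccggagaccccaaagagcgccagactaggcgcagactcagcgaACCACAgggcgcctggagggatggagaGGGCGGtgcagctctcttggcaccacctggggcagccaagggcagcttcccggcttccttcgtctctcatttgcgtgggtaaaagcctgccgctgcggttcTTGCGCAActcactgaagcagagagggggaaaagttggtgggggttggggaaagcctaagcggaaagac
Ptger4: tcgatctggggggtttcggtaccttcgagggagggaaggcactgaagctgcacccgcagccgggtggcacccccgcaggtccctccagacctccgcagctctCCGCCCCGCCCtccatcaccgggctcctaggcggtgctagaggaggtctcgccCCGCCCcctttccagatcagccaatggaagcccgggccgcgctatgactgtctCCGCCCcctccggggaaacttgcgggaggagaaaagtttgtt
Motifs were searched on both strands, from 250 bases before to 50 bases after the start, in 32851 RefSeq promoters. In Ptgs2 the capitals are a RUNX motif (TGTGGT, here as its complement), a GC box (GGGCGG) and a C/EBP motif (TTGCNNAA), which begin 197, 170 and 69 bases before the start. These letters occurred in 16.8%, 35.7% and 10.8% of all promoters, respectively. An E-box (CACGTG, in 7.15% of promoters) began at base 17 of the Ptgs2 transcript. The Ptger4 promoter held 4 GC boxes on its other strand, beginning 148, 143, 95 and 42 bases before the start, the first 2 of which share a base. Neither promoter held the searched letters of a TATA box (TATAAA, in 13.6% of promoters), a CRE (TGACGTCA, 1.79%), an AP-1 motif (TGANTCA, 7.81%) or the NF-kB motif (8.46%). A match is a description of letters and not a measured site.

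Expression of the cyclooxygenases came first in the order of the pathway. Ptgs1 (chr2:36230426-36252272 on mm10, plus strand) was at 33.5, 16.2, 22.8, 32 and 20.97 TPM in Fgfr3-WT replicates 1 to 5, at 21.1, 20.3, 29.3, 25.7 and 41.8 TPM in P28 replicates 1 to 5, and at 40.6, 25.9, 59.7 and 65.2 TPM in P4M replicates 1 to 4. In TPM, replicate 5 of the P28 clones lay above the Fgfr3-WT range and the others within it, and 2 of the 4 P4M clones lay above every other clone. Ptgs1 was 0.91 ± 0.29 (SE) higher in P4M than in P28 on the log2 scale, with an adjusted p of 0.0699 in the edgeR quasi-likelihood test. This did not pass the 0.05 threshold, although it did with DESeq2 (adjusted p = 0.0344), when only the P28 and P4M clones were fitted (0.0454) and without P28 replicate 5 (0.0305).

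Ptgs2 (chr1:150100031-150108227, plus strand) was at 20.6, 1.86, 14.7, 3.77 and 2.54 TPM in Fgfr3-WT, at 14.1, 11.2, 17.5, 51.6 and 73.0 TPM in P28, and at 48.7, 33.9, 37.0 and 90.8 TPM in P4M. All 4 P4M clones and P28 replicates 4 and 5 stood above every Fgfr3-WT clone, and the other P28 clones lay inside the Fgfr3-WT range. The log2 fold change against Fgfr3-WT was 1.68 ± 0.70 (SE) for P28 and 2.54 ± 0.74 for P4M. These 2 comparisons share the Fgfr3-WT clones. Without P28 replicates 4 and 5 the value for P28 was 0.46 ± 0.68. Within the cKO clones the P4M group was 0.86 ± 0.72 higher on the log2 scale, which did not pass the test (adjusted p = 0.482, edgeR). This difference ran from 0.47 without P4M replicate 4 to 1.37 without P28 replicate 5, and was 2.09 without P28 replicates 4 and 5 (adjusted p = 0.11, edgeR).

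Per length, the ratio of Ptgs2 to Ptgs1 TPM changed its side of 1 among the clones. It was 0.115 to 0.646 in the Fgfr3-WT clones. It was 0.667, 0.551 and 0.597 in P28 replicates 1 to 3 but 2.01 and 1.75 in replicates 4 and 5. In P4M it was 1.20, 1.31, 0.620 and 1.39, so COX-2 transcripts exceeded those of COX-1 in 5 of the 9 cKO clones and in no Fgfr3-WT clone.

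Ptgis, the prostacyclin synthase (chr2:167191805-167240604, minus strand), went from near absence to the member with the highest mean TPM. It was at 0, 0.18, 0, 0.29 and 0.79 TPM in Fgfr3-WT, at 161, 144, 172, 32.8 and 26.0 TPM in P28, and at 75.5, 170.0, 47.7 and 137 TPM in P4M. Every cKO clone was far above every Fgfr3-WT clone. The Fgfr3-WT level rested on 47 counts in all, with 0, 6, 0, 16 and 25 in the single clones, against 1095 to 9618 counts in each cKO clone. The 2 counts of 0 allow up to 0.0977 and 0.121 CPM, counts scaled to library size, a limit of counting error only. The fitted log2 fold change was 8.47 ± 1.01 (SE) for P28 and 8.65 ± 1.03 for P4M against the shared Fgfr3-WT clones. With so few Fgfr3-WT counts its size depends on the prior count that the fit adds. By its log2 fold change over both cKO groups, 8.56 ± 0.998, Ptgis ranked 1 among the 9660 genes whose mean log2 CPM reached 3 and 32 among all tested, which is how it was chosen.

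The test that the choice did not use set P4M against P28. Here Ptgis differed by 0.19 ± 0.74 (SE) on the log2 scale (adjusted p = 0.904), and its sign turned when P28 replicate 4 or 5 or P4M replicate 2 was left out. The mean level was 107 ± 71.7 TPM (SD, n = 5) in P28 and 107 ± 55.8 TPM (SD, n = 4) in P4M. The SE leaves a difference of either sign within the error. An antisense transcript, 1110018N20Rik, shares 156 of the 2567 exonic bases of Ptgis. The library kit does not keep strand, so its reads there cannot be told from those of Ptgis.

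Ptgis is known from vessel walls, where endothelium and smooth muscle express it, and markers of both cell types were therefore read beside it. Of the 6 endothelial genes, Cdh5 and Tie1 were listed at 0 in every clone, and the 6 together summed to at most 0.25 TPM in Fgfr3-WT, 1.31 TPM in P28 and 3.26 TPM in P4M, with Kdr the most abundant in every cKO clone. Kdr was the 1 endothelial gene tested, and it was called higher in cKO (log2 fold change 4.59, adjusted p = 0.00371, edgeR). Smooth muscle and pericyte genes moved with Ptgis between genotypes. Their sum was 2.12, 84.2, 27.4, 67.3 and 51.9 TPM in Fgfr3-WT, 3638, 2619, 2146, 1707 and 1467 TPM in P28, and 389, 343, 355 and 521 TPM in P4M, with Acta2 the most abundant in every cKO clone. Of the 6 genes, 4 were called higher in cKO than in Fgfr3-WT (Acta2, Myh11, Cnn1 and Mcam) and Rgs5 was called lower by edgeR, beside 23.1% and 25.7% of all tested genes. Rgs5 was at 23.1 TPM in Fgfr3-WT replicate 5 and at or below 0.33 TPM in the other Fgfr3-WT clones, against 0.03 to 1.14 TPM in cKO. DESeq2 gave an adjusted p for 5 of the 6 genes and called 4 higher and 0 lower, beside 21.4% and 23.1% of all genes to which it gave one (44.5% in either direction). The part of these cells or of this programme in the Ptgis level was not tested. Among the cKO groups the order was not shared, since the P4M clones had lower marker sums than every P28 clone and Ptgis levels inside the P28 range.

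**Figure D1:**
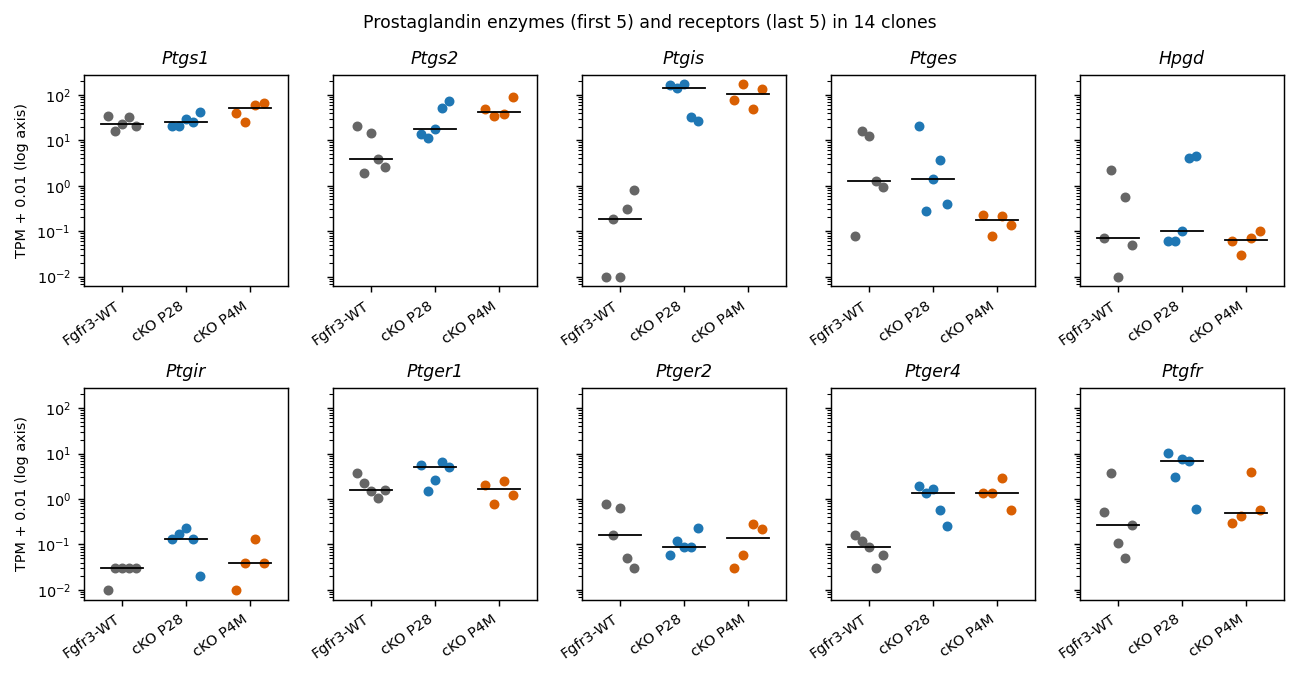
Each panel shows 1 gene, with TPM + 0.01 on a log axis against the group, 1 point per clone (5 Fgfr3-WT, 5 cKO P28, 4 cKO P4M) and the median as a line. Ptgis and Ptger4 are the genes in which all 9 cKO clones lie above all Fgfr3-WT clones, as do 13.4% of all tested genes in TPM. Ptges is at 0.27 to 20.3 TPM in P28 and at 0.07 to 0.22 TPM in P4M. In CPM P4M replicate 1 lies just above P28 replicate 2 for Ptges.

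Ptges, the inducible synthase of prostaglandin E2 (chr2:30889471-30929863, minus strand), was uneven from clone to clone. It was at 0.07, 15.6, 12.2, 1.29 and 0.92 TPM in Fgfr3-WT, at 20.3, 0.27, 1.39, 3.61 and 0.38 TPM in P28, and at 0.22, 0.07, 0.21 and 0.13 TPM in P4M. In TPM the highest P4M clone (0.22) was close to the lowest P28 clone (0.27). In CPM, the scale of the fit, P4M replicate 1 (0.485 CPM) lay just above P28 replicate 2 (0.478 CPM). The log2 difference of P4M from P28 was -4.48 ± 1.53 (SE), with an adjusted p of 0.0872 in edgeR. DESeq2 gave 0.00218 and the edgeR fit on the 2 cKO groups alone gave 0.0436. Without P28 replicate 1 the difference was -2.82 (adjusted p = 0.227, edgeR). The P4M clones held 4 to 23 counts each.

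The balance of Ptgis to Ptges transcripts differed between Fgfr3-WT and cKO clones, and in P28 this came from Ptgis, the gene for which the group was chosen, since Ptges overlapped Fgfr3-WT (log2 fold change -0.34 ± 1.19, SE). Ptgis TPM divided by Ptges TPM was at most 0.859 in Fgfr3-WT. The ratio ran from 7.95 to 532 in P28 (median 68.3) and from 227 to 2429 in P4M. The P28 ratios overlapped those of P4M, as P28 replicate 2, at 532, was above P4M replicates 1 and 3. Further synthases of prostaglandin E2, Ptges2 and Ptges3, were steadier. Ptges3, the cytosolic form that is also the co-chaperone p23, had mean levels of 104, 114 and 115 TPM in Fgfr3-WT, P28 and P4M and was not called in either comparison.

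Hpgd, which inactivates prostaglandins by oxidising the 15-hydroxyl group (chr8:56294585-56321043, plus strand), was detected above 1 TPM in only 3 clones. It was at 0.06, 2.26, 0, 0.55 and 0.04 TPM in Fgfr3-WT, at 0.05, 0.05, 0.09, 3.98 and 4.48 TPM in P28, and at 0.05, 0.02, 0.06 and 0.09 TPM in P4M. P28 replicates 4 and 5 were the highest of all clones, and the rest of the cKO clones had 1 to 5 counts each. The P4M to P28 difference of -4.65 ± 1.76 (SE) on the log2 scale did not pass in edgeR (adjusted p = 0.118) and did in DESeq2 (0.0127).

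The 2 P28 clones that were high in Hpgd were those with high Sp7 and Bglap. They were also the lowest 2 of the 9 cKO clones for Ptgis and among the highest 3 for Ptgs2. P4M clones had Sp7 at 68.3 to 335 TPM and Bglap at 1127 to 2202 TPM, with Hpgd at or below 0.09 TPM and Ptgis between 47.7 and 170.0 TPM. High Sp7 and Bglap thus went with high Hpgd in P28 and not in P4M clones. The sum of all 6 osteoblast markers was 6277, 4104, 6033, 7138 and 7077 TPM in P28 replicates 1 to 5, led by Col1a1. This was a far smaller split than that of Sp7 and Bglap. Across the 9 cKO clones, after the mean of each group was subtracted, Pearson's r with Ptgis on the log2 CPM scale was -0.89 for Hpgd, -0.74 for Ptgs2, -0.69 for Ptger1, -0.59 for Ptgs1, -0.39 for Ptger2 and 0.52 for Ptger4. For Ptgfr it was 0.30 and for Ptges 0.05. These values describe 9 clones and lean on the P28 replicates 4 and 5. With the Fgfr3-WT clones included, and thus clones with few Ptgis counts, r over 14 clones was -0.23 for Hpgd, -0.82 for Ptgs2, -0.58 for Ptger1, -0.34 for Ptgs1, 0.04 for Ptger4 and -0.78 for Ptger2. For Ptgfr it was 0.10 and for Ptges 0.06 over the same 14 clones.

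**Figure D2:**
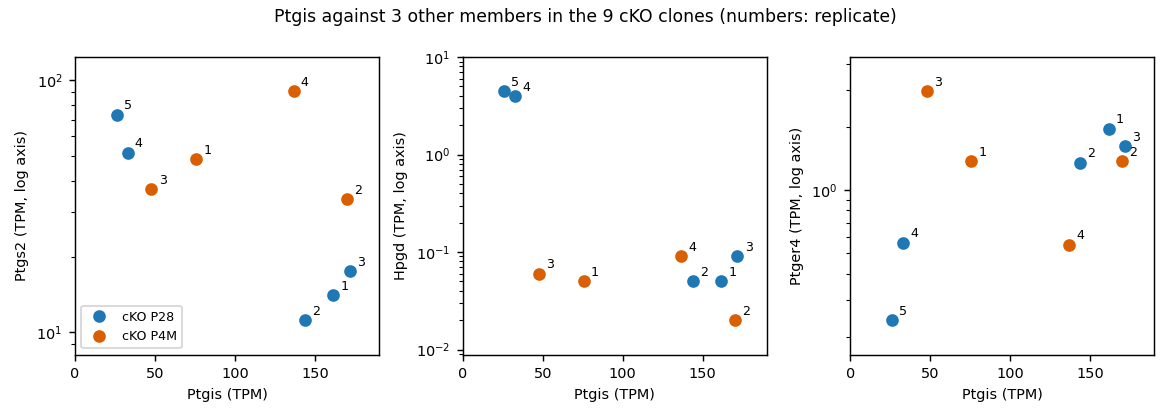
TPM of Ptgs2, Hpgd and Ptger4 (log axes) against TPM of Ptgis (linear axis) in the 9 cKO clones, with blue for P28, orange for P4M and the replicate number at each point. P28 replicates 4 and 5 have the 2 lowest Ptgis levels and the 2 highest Hpgd levels, while P4M replicate 4 is high for both Ptgis (137 TPM) and Ptgs2 (90.8 TPM).

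Among the receptors, Ptgir, the receptor of prostacyclin (chr7:16906490-16910905, plus strand), was at or near the limit of detection. It was at 0, 0.02, 0.02, 0.02 and 0.02 TPM in Fgfr3-WT, at 0.12, 0.16, 0.22, 0.12 and 0.01 TPM in P28, and at 0, 0.03, 0.12 and 0.03 TPM in P4M. The whole of this rested on 5, 56 and 19 counts per group, and the gene did not pass the filter on low counts. Clones in which prostacyclin synthase exceeded 25 TPM thus held at most 0.22 TPM of the prostacyclin receptor. Ppard, a nuclear receptor that has been proposed to bind prostacyclin, had mean levels of 25.9, 30.1 and 27.5 TPM in the 3 groups and was not called (adjusted p = 0.183 for cKO against Fgfr3-WT and 0.861 for P4M against P28, edgeR).

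Ptger4, which encodes the cAMP-raising receptor EP4 (chr15:5206661-5244187, minus strand), had the largest positive fold change of the member receptors fitted. It was at 0.15, 0.11, 0.08, 0.02 and 0.05 TPM in Fgfr3-WT, at 1.96, 1.35, 1.62, 0.56 and 0.24 TPM in P28, and at 1.37, 1.37, 2.96 and 0.55 TPM in P4M. Every cKO clone was above every Fgfr3-WT clone, as for Ptgis. These 2 genes were the only 2 of the 10 with no overlap. Of all tested genes, 13.4% had every cKO clone above every Fgfr3-WT clone in TPM. Further, 48.8% of tested genes were called in either direction between cKO and Fgfr3-WT, 38.9% for P28 alone and 45.9% for P4M alone, in comparisons that chose the members. The log2 fold change was 3.43 ± 0.68 (SE) for P28 and 4.05 ± 0.70 for P4M against the shared Fgfr3-WT clones, which held 2 to 11 counts each. Between the cKO groups it was 0.62 ± 0.62 (adjusted p = 0.566, edgeR), and 0.11 without P4M replicate 3. A processed pseudogene on the opposite strand, Gm15937, shares 1015 of the 6648 exonic bases. Smaller stretches of opposite-strand noncoding annotation overlap the exons of Ptgs1 (148 bases), Ptger2 (246 and 144 bases) and Ptgfr (329 bases).

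Ptger2, the other cAMP-raising receptor of prostaglandin E2 (chr14:44988195-45003820, plus strand), stayed below 1 TPM throughout. It was at 0.76, 0.15, 0.62, 0.04 and 0.02 TPM in Fgfr3-WT, at 0.05, 0.11, 0.08, 0.08 and 0.22 TPM in P28, and at 0.02, 0.05, 0.27 and 0.21 TPM in P4M. All 3 groups overlapped, and Fgfr3-WT replicates 1 and 3 were the highest 2 clones. The P4M to P28 difference was 0.60 ± 0.90 (SE) on the log2 scale (adjusted p = 0.721, edgeR), and 0.10 without P4M replicate 3.

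Ptger1, the calcium-linked receptor EP1 (chr8:83666678-83672753, plus strand), was at 3.73, 2.20, 1.47, 1.07 and 1.56 TPM in Fgfr3-WT, at 5.47, 1.51, 2.61, 6.39 and 5.18 TPM in P28, and at 2.04, 0.76, 2.54 and 1.24 TPM in P4M. P28 replicates 1, 4 and 5 were above every other clone. P4M was lower than P28 by a log2 difference of -1.19 ± 0.44 (SE) that did not pass the test (adjusted p = 0.113, edgeR). The library kit keeps no strand and not all reads over the exons of Ptger1 can be assigned to it with certainty, so all Ptger1 values are uncertain.

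Ptgfr, the receptor of prostaglandin F2 alpha (chr3:151796502-151837630, minus strand), varied most among the receptors. It was at 0.52, 3.80, 0.10, 0.04 and 0.26 TPM in Fgfr3-WT, at 10.5, 3, 7.73, 6.77 and 0.60 TPM in P28, and at 0.28, 0.42, 4.02 and 0.56 TPM in P4M. Of the P28 clones, replicates 1, 3 and 4 were the highest of all clones, and Fgfr3-WT replicate 2 and P4M replicate 3 stood apart from their groups. The log2 fold change of both cKO groups against Fgfr3-WT was 1.14 ± 1.01 (SE) and became 3.12 ± 0.99 without Fgfr3-WT replicate 2. Between P4M and P28 it was -1.93 ± 1.21 (adjusted p = 0.334, edgeR), and without P4M replicate 3 it was -3.40 (adjusted p = 0.155).

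Taken by the G protein to which they couple, receptor transcripts leaned to the Gq class in most clones. The Gq class (Ptger1, Ptgfr and Tbxa2r) held 62.1% to 94.8% of the summed TPM of the prostanoid receptors in Fgfr3-WT, 72.7% to 91.7% in P28 and 43.4% to 66.3% in P4M clones. The 4 P4M shares lay below every P28 share. The Gs class (Ptgir, Ptger2, Ptger4 and Ptgdr) held 4.33% to 28.5% in Fgfr3-WT, 4.75% to 24.3% in P28 and 27.3% to 44.6% in P4M, so that its shares in P4M lay above every P28 share. Ptger4 alone held 19.0% to 42.1% of the sum in P4M, 3.48% to 20.3% in P28 and at most 3.16% in Fgfr3-WT, with P28 overlapping P4M. These shares carry the uncertainty of Ptger1, and no test was run on them.

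**Figure D3:**
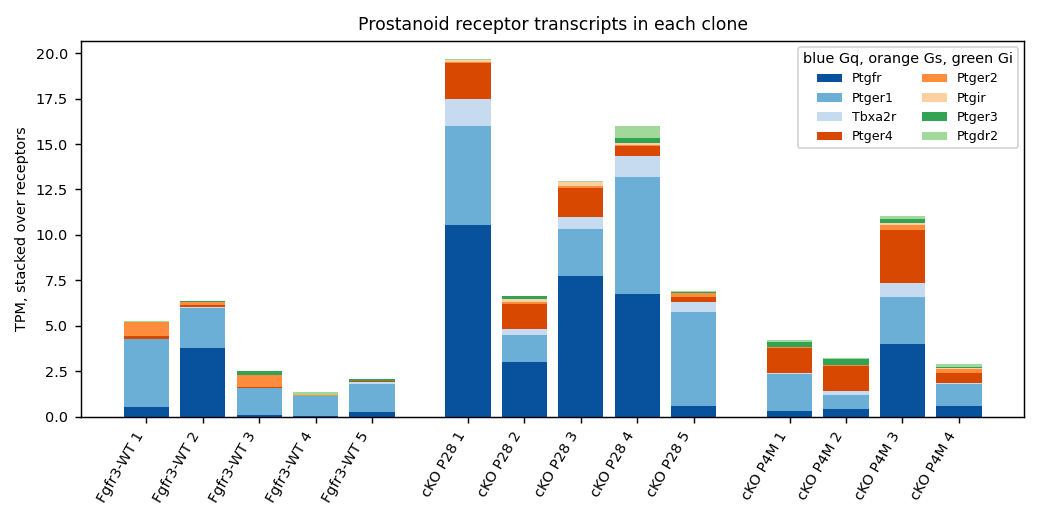
TPM of 8 prostanoid receptor genes stacked for each of the 14 clones, with Gq-coupled receptors in blue, Gs-coupled in orange and Gi-coupled in green, and Ptgdr, at 0 in every clone, not drawn. The sum is highest in P28 replicate 1 (19.7 TPM) and the orange share is larger in all 4 P4M clones than in any P28 clone.

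Of the 9 members fitted, 0 were called between P4M and P28 by edgeR at an FDR of 0.05, in a comparison in which 7.22% of all tested genes were called. At an unadjusted p under 0.05 there were 4 (Ptgs1, Ptges, Hpgd and Ptger1), beside 25.8% of all tested genes, and DESeq2 called 3, of which Ptgs1 was higher and Ptges and Hpgd were lower in P4M. DESeq2 called 14.2% of all genes to which it gave an adjusted p, 6.23% higher and 7.95% lower.

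**Figure D4:**
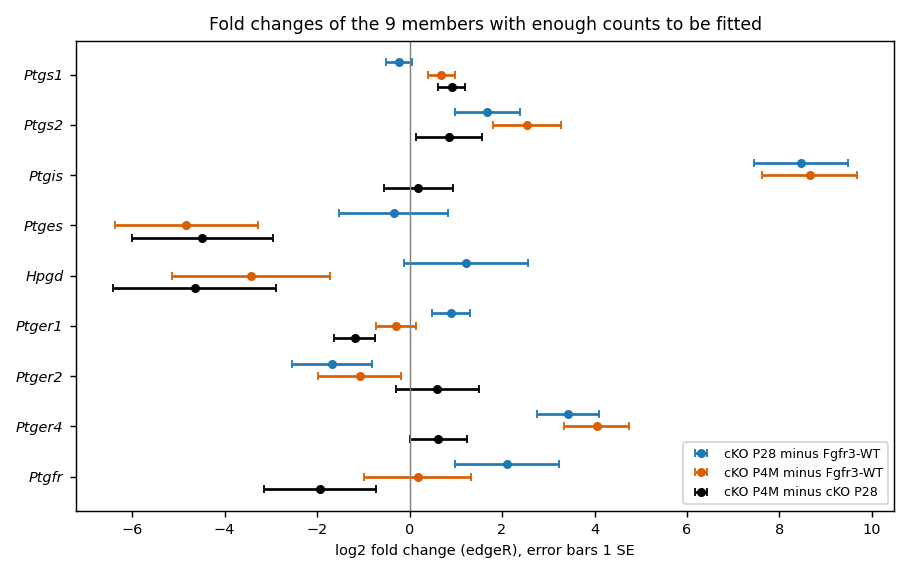
Log2 fold changes from edgeR with bars of 1 SE for the 9 members that passed the filter on low counts, in P28 minus Fgfr3-WT (blue), P4M minus Fgfr3-WT (orange) and P4M minus P28 (black). The first 2 share the Fgfr3-WT clones. Ptgis lies above 8 in both of them and near 0 between the cKO groups, whereas Ptges (-4.48) and Hpgd (-4.65) lie well below 0 there.

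The members differed in their spread between clones. Within P28 the SD of log2 CPM was 0.42 for Ptgs1, a value larger than that of 61.4% of all tested genes. It was 1.37 for Ptgis, 2.30 for Ptges and 2.81 for Hpgd, larger than in 93.7%, 98.5% and 99.3% of tested genes. In P4M clones the SD was 0.49 for Ptgs1, 0.83 for Ptgis, 0.89 for Ptges and 0.41 for Hpgd, the last 2 from clones with few counts. In Fgfr3-WT Ptges had the largest SD of the members, 2.82, and Ptgs1 the smallest, 0.49, close to the median of all tested genes in that group (0.51).

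The genes whose log2 CPM, less the group means, rose and fell most closely with Ptgis over the 14 clones were Sik1, a salt-inducible kinase (Pearson's r = 0.95), Sh3glb2 (0.94), Tarsl2 (0.94), Nxn, an oxidoreductase of the thioredoxin family (0.93), and Sertad1 (0.91). The most opposed were Mzt1 (-0.95), Bud23 (-0.92), Fastkd3 (-0.92), Cmss1 (-0.92) and Pgam5 (-0.92). The mean CPM of Sik1 was 11.7 in Fgfr3-WT, 9.86 in P28 and 18.7 in P4M, so it did not share the difference of Ptgis between genotypes. The order rests in part on Fgfr3-WT clones with at most 25 counts of Ptgis, and only 1 of the 5 most alike genes was among the first 5 by Spearman's rho.

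Genes around the pathway were read from lists by role. Of the enzymes that supply or handle arachidonic acid, 18 of 22 were tested. Against Fgfr3-WT, 4 were called higher and 7 lower in cKO, beside 23.1% and 25.7% of all tested genes, and the list's median log2 fold change was -0.45 against -0.05 over all genes. The most changed pair breaks down endocannabinoids, a route that can also yield arachidonic acid. Mgll, the monoacylglycerol lipase, was at 0 to 0.82 TPM in Fgfr3-WT, 1.76 to 13 TPM in P28 and 12.1 to 30.2 TPM in P4M. It rose by 5.07 ± 0.97 (SE) in cKO on the log2 scale (adjusted p = 0.000898, edgeR). Faah, the fatty acid amide hydrolase, was at 2.48 to 72.6 TPM in Fgfr3-WT, 0.33 to 2.01 TPM in P28 and 0.33 to 1.56 TPM in P4M, with a log2 fold change of -5.01 ± 0.77 (adjusted p = 0.000205). Mgll was among the 13.4% of tested genes with every cKO clone above every Fgfr3-WT clone in TPM. Pla2g7 (log2 fold change -3.60), Plaat3 (-1.82), Pla2g15, Pla2g12a, Pla2g4b and Daglb were the others called lower, and Lpcat3, Pla2g4a and Pla2g4c the others called higher. For Pla2g4a the log2 fold change was 0.28 in P28 and 1.65 in P4M (adjusted p = 0.502 and 0.00135), and for Pla2g12a it was -1.58 and -0.17 (adjusted p = 0.000596 and 0.635, edgeR).

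Between P4M and P28, 2 of these 18 genes were called higher and 1 lower, beside 3.34% and 3.88% of all tested genes, with a median of -0.13 against -0.01. Pla2g4a, the cytosolic phospholipase A2 that releases arachidonic acid for prostaglandin synthesis, was at 36.2, 30.3, 31.3, 48.5 and 70.1 TPM in P28 and at 82.5, 118, 92.7 and 101 TPM in P4M. The log2 difference was 1.38 ± 0.32 (SE; adjusted p = 0.0254, edgeR). The call was lost, with adjusted p values up to 0.0698, without P28 replicate 1 or 3 or P4M replicate 2 or 4. Pla2g12a, a secreted phospholipase, was at 19.0, 24.7, 15.6, 13.6 and 12.0 TPM in P28 and at 36.8, 36.5, 55.2 and 34.5 TPM in P4M. Its difference of 1.40 ± 0.27 (adjusted p = 0.0122) was called in all 21 alternative fits, and the P4M level lay inside the Fgfr3-WT range of 28.9 to 63.5 TPM. Pla2g3 fell by 1.70 on the log2 scale (adjusted p = 0.0315) at mean levels of 0.532 and 0.140 TPM, and this call held in 6 of the 14 fits without 1 clone.

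Of the 9 other prostanoid synthases, 7 were tested. In cKO against Fgfr3-WT, Ptges2 rose (0.51 ± 0.16, adjusted p = 0.0164) and Prxl2b, a prostamide and prostaglandin F synthase, fell (-3.30 ± 1.07, adjusted p = 0.0205). The latter call was lost in 1 of 19 alternative fits, without P28 replicates 4 and 5. This was 1 of 7 genes in each direction, beside 23.1% and 25.7% of all tested genes, and the median was 0.21. Akr1b7, an aldo-keto reductase with prostaglandin F synthase activity, was at 0.43, 1.22, 0.22, 0.84 and 1.25 TPM in P28 and at 5.31, 8.85, 20.8 and 8.12 TPM in P4M. It was the only one of these 7 called between the ages (3.95 ± 0.94, adjusted p = 0.0269, edgeR), beside 3.34% of all tested genes called higher and 7.22% in either direction, and the call held in 8 of the 14 fits with 1 clone removed. Against Fgfr3-WT its log2 fold change was -3.10 in P28 (adjusted p = 0.0148) and 0.85 in P4M (adjusted p = 0.444, edgeR). Its close relatives Akr1b3 and Akr1b8 were not called, and reads of such paralogs may be shared. Tbxas1, the thromboxane synthase, was at 2.22 and 2.84 TPM in P28 replicates 4 and 5 and at or below 0.59 TPM in every other clone. Ptgds, a prostaglandin D2 synthase, was at 32.6 TPM in Fgfr3-WT replicate 2, at or below 1.37 TPM in all other clones, and did not pass the filter.

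All 8 transport and breakdown genes were tested, with 2 higher and 1 lower in cKO, beside 23.1% and 25.7% of all tested genes, and a median log2 fold change of -0.03 against -0.05. Between P4M and P28, 0 were called by edgeR or DESeq2, and 3 had an unadjusted p under 0.05 in edgeR, beside 25.8% of all tested genes. Slco2a1, the prostaglandin uptake carrier, was at 0.14 to 3.49 TPM in Fgfr3-WT, at 21.6, 17.9, 17.8, 23.8 and 0.67 TPM in P28, and at 5.39, 0.98, 4.07 and 14.8 TPM in P4M. Its log2 fold change in cKO was 2.68 ± 0.93 (SE; adjusted p = 0.0283), P28 replicate 5 and P4M replicate 2 lay within the Fgfr3-WT range, and the call held in 10 of the 14 fits without 1 clone, being lost without Fgfr3-WT replicate 1, 3 or 4 or P4M replicate 4. The carbonyl reductases, which can reduce prostaglandin E2, went opposite ways, with Cbr1 lower (-1.53 ± 0.29, adjusted p = 0.00079) and Cbr3 higher (2.16 ± 0.52, adjusted p = 0.00402). Cbr1 was at 15.2 to 16.8 TPM in the 4 P4M clones, close to Fgfr3-WT replicate 1 at 18.1 TPM.

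Of the 11 other receptors and partners, 10 were tested and 3 called in cKO against Fgfr3-WT, beside 48.8% of all tested genes, and 2 of the 3 were higher. Tbxa2r, the thromboxane receptor, was at 0 to 0.07 TPM in Fgfr3-WT, 0.33 to 1.5 TPM in P28 and 0.07 to 0.77 TPM in P4M (3.79 ± 0.78, adjusted p = 0.00145, edgeR). Gnas, which encodes the G protein subunit that stimulates adenylyl cyclase, rose by 0.50 ± 0.14 (adjusted p = 0.0110), and Gna11, a subunit of the Gq class, fell by 0.69 on the log2 scale (adjusted p = 0.00171). The median of the list was 0.18. None of the 10 was called between P4M and P28 by edgeR, DESeq2 called 0 of the 9 it tested, and 1 had an unadjusted p under 0.05 in edgeR, beside 25.8% of all tested genes.

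Downstream, all 31 genes of cAMP signalling were tested, and 13 were called higher and 7 lower in cKO against Fgfr3-WT, beside 23.1% and 25.7% of all tested genes, with a median of 0.37 against -0.05. Led by size among genes whose mean log2 CPM reached 3, the higher ones were Adcy3, an adenylyl cyclase (3.54 ± 0.46, adjusted p = 6.17e-05), Nr4a1, an early cAMP-responsive nuclear receptor (2.46 ± 0.37, adjusted p = 0.000188), and Prkar2b, a regulatory subunit of protein kinase A (1.65 ± 0.29, adjusted p = 0.000506). Under the same limit on mean log2 CPM, the lower ones were led by Adcy9 (-0.998), Crem (-0.67) and Crtc3 (-0.54). Some called genes below that limit fell further. Adcy3 was at 0.63 to 5.76 TPM in Fgfr3-WT, 16.1 to 23.7 TPM in P28 and 36.7 to 50.1 TPM in P4M. P4M against P28 was not called (1.44, adjusted p = 0.0690, edgeR).

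Between P4M and P28, 2 genes of this list were called higher and 2 lower, beside 3.34% and 3.88% of all tested genes, with a median of -0.17 against -0.01. Prkar1a rose by 0.44 ± 0.12 (adjusted p = 0.0491) and Nr4a1 fell by 1.45 on the log2 scale (adjusted p = 0.0487), both calls that held in few of the fits without 1 clone, 5 and 2 of 14. The other pair fell below the mean log2 CPM of 3 used to name genes and was chosen with its values already seen. Rapgef4, the cAMP-activated exchange factor Epac2, was at 0.25, 0.20, 0.29, 0.25 and 0.32 TPM in P28 and at 6.37, 10.1, 3.73 and 6.63 TPM in P4M, with Fgfr3-WT between 0.48 and 1.5 TPM. Its difference of 5.26 ± 0.49 (SE; adjusted p = 0.00076, edgeR) was called in all 21 alternative fits. Pde3a, a phosphodiesterase that degrades cAMP, was at 0.52 to 4.06 TPM in P28 and 0.02 to 0.46 TPM in P4M (-3.56 ± 0.93, adjusted p = 0.0366), a call held in 8 of the 14 fits without 1 clone.

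Of 24 regulators of Ptgs2 and Ptges, 20 were tested, and 7 were called higher and 4 lower in cKO against Fgfr3-WT, with a median of 0.11. These counts are near the shares of all tested genes, 23.1% and 25.7%. Among genes whose mean log2 CPM reached 3, the higher ones were led by Egr1 (1.27, adjusted p = 0.0425), Nfkb2 (0.95, adjusted p = 0.00342) and Cebpb (0.62, adjusted p = 0.0209), and the lower ones by Tsc22d3, a glucocorticoid-induced gene (-1.24, adjusted p = 0.0122), the interleukin 1 receptor Il1r1 (-1.05, adjusted p = 0.0367) and Cebpd (-0.96, adjusted p = 0.0273). Cebpb differed from Fgfr3-WT (34.6 to 92.8 TPM) mainly in P4M, with a log2 fold change of 1.21 for P4M (adjusted p = 0.00122) and 0.03 for P28 (adjusted p = 0.936, edgeR). The calls of Egr1 and Il1r1 held in 2 and 5 of the 14 fits without 1 clone. Against Fgfr3-WT, that of Cebpd held in 11 and those of Tsc22d3 and Cebpb in 13 each. Il1b was at or near 0 in all groups, and the median of the list between P4M and P28 was -0.19. There 1 gene was called higher and 1 lower, beside 3.34% and 3.88% of all tested genes. Cebpb, whose product binds the C/EBP motif, was at 95.3, 118, 80.2, 64.0 and 74.7 TPM in P28 and at 162, 158, 195 and 176 TPM in P4M. This was a difference of 1.18 ± 0.23 (SE; adjusted p = 0.0130, edgeR), called in all 21 alternative fits. Zfp36, which encodes a protein that destabilises mRNAs such as that of Ptgs2, was at 13.6 to 24.5 TPM in P28 and 3.23 to 7.72 TPM in P4M (-1.54 ± 0.38, adjusted p = 0.0298), a call held in 7 of the 14 fits without 1 clone.

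Genes of the lipoxygenase and leukotriene branch were read together with the epoxide hydrolases Ephx1 and Ephx2. The P450 enzymes that make epoxides from arachidonic acid were not listed. Of 15 genes, 6 passed the filter, and 0 were called higher and 4 lower in cKO against Fgfr3-WT, beside 23.1% and 25.7% of all tested genes, with a median of -1.09 against -0.05. Ephx1, the microsomal epoxide hydrolase, had mean levels of 736 TPM in Fgfr3-WT, 68.9 TPM in P28 and 52.7 TPM in P4M (-3.81 ± 0.47, adjusted p = 4.48e-05). The P4M mean rests on replicate 3, at 147 TPM where the other P4M clones were at 16.2 to 23.9 TPM. Lta4h, the leukotriene A4 hydrolase, fell by 0.69 on the log2 scale (adjusted p = 0.000745). The other 2, Ephx2 (-5.42) and Aloxe3 (-0.97), fall outside the rule for named genes and are given with their values already seen. The call of Aloxe3 (adjusted p = 0.0416, edgeR) held in 4 of the 14 fits without 1 clone. DESeq2 also called 0 higher, and 0 of the 6 were higher at an unadjusted p under 0.05 in edgeR. None was called between P4M and P28 by edgeR or DESeq2, with 0 at an unadjusted p under 0.05 in edgeR, beside 25.8% of all tested genes.

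**Figure D5:**
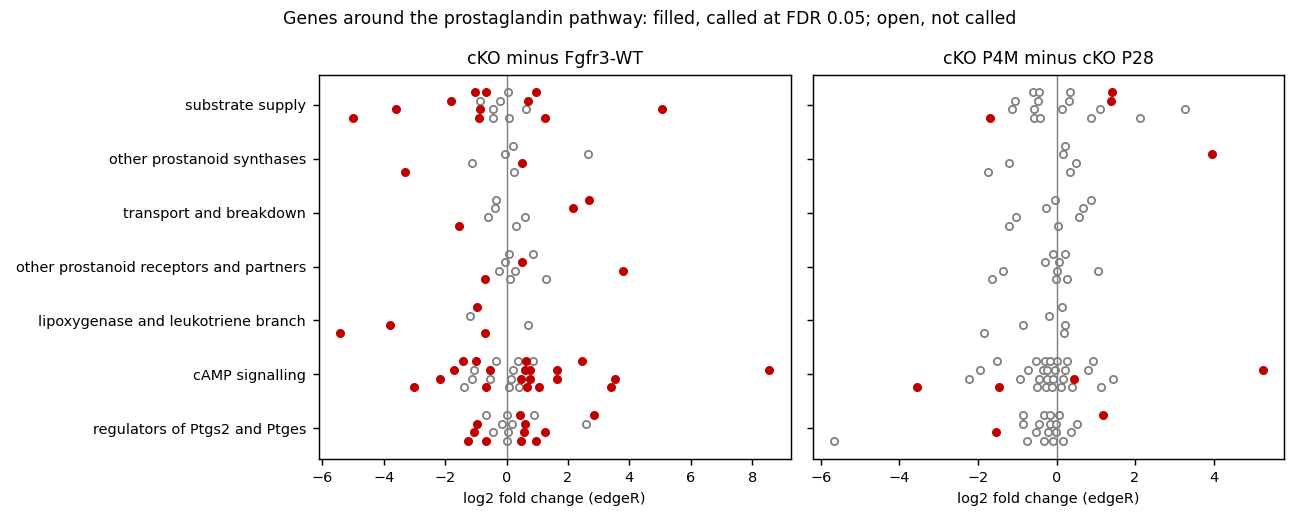
Log2 fold changes from edgeR of every tested gene of the 7 lists, by list, for cKO minus Fgfr3-WT (left) and P4M minus P28 (right), with filled points for genes called at an FDR of 0.05 and open points for the rest. Calls fall on both sides of 0 in 6 of the 7 lists on the left, and 10 genes are called on the right.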

How the data were processed

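Bulk RNA-seq tables of 14 clones were used as deposited. By the study's methods, single-end reads from SMART-Seq v4 libraries were aligned to mm10 with TopHat and Bowtie2, and reads that mapped without ambiguity were counted with HTSeq. Versions are not given in the sources used here. The deposited raw counts hold whole numbers, not normalized, for 30503 rows, of which 4 are reporter transgenes. The authors also deposited TPM values, which are scaled per length and per library, and FPKM values, used only for an alternative ranking. The program behind both is not given in the sources used here. Levels of different genes were compared in TPM only.

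Counts were fitted in R 4.3.3 with edgeR 4.0.16 (TMM, filterByExpr, robust quasi-likelihood, all 14 clones in 1 model without intercept), and p-values were adjusted by Benjamini-Hochberg over 17358 genes and called at 0.05. The 4 contrasts were both cKO groups, P28 and P4M each against Fgfr3-WT, and P4M against P28. DESeq2 1.42.0, other scalings and filters, a fit of the compared groups alone and 14 fits without 1 clone each were run as alternatives. The steps were tested on simulated data. Replicate numbers are running numbers within a group. All pairs of clones within a group differed beyond sampling noise, with a chi-square per degree of freedom of at least 66.6. CPM used a prior count of 2 where logged, and edgeR fold changes kept the default prior count of that package. The SE of an edgeR log2 fold change was its absolute value divided by the square root of its F statistic. It was not estimated as a separate term of the model. A count of 0 was taken to allow 3 counts.

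Gene positions are from GENCODE M21 on mm10 and promoters from RefSeq on GRCm38.p6, where 8 of the 10 members had an entry. Members and gene lists were chosen with earlier results of these data known. Named are all members, Trp53 and Cdkn1a, genes of the lists of enzymes, carriers and receptors, the 3 largest called changes in each direction whose mean log2 CPM reached 3 in the other 3 lists, marker genes, and the 5 genes most and least like Ptgis. The marker lists of blood, platelet and mast cells were also read, with Cpa3, Mcpt4 and Fcer1a at 0 in every clone. Lyz2 or Cd68 led the blood list. It summed to 22.4 to 165 TPM in Fgfr3-WT, 5.24 to 34.5 TPM in P28 and 6.79 to 11.9 TPM in P4M. Of its 3 tested genes, edgeR called Lyz2 (-2.96) and Cd68 (-3.14) lower and Csf1r (1.58) higher in cKO. Of all tested genes, 25.7% were called lower and 23.1% higher. Itga2b led the platelet list (2.00 to 16.1 TPM). Some overlaps between annotated genes are not reported here.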

Additional observations from a re-analysis of the deposited data

Results flagged for a closer look

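Of 30 sets of CPM values (10 genes in 3 groups), 4 had 1 clone whose gap to its neighbours was larger than Dixon's 95% limit allows. Chance gives about 1 in 20 only for normally distributed values. These CPM were not logged and many lay near 0, so the chance rate here is not known and 4 is not read as an excess. Ptges was at 28.1 CPM in P28 replicate 1 against a group median of 2.45 CPM. Hpgd was at 2.41 CPM in Fgfr3-WT replicate 2, with a median of 0.0652 CPM. Ptgfr was at 13.2 CPM in the same Fgfr3-WT clone (median 0.871 CPM) and at 10.8 CPM in P4M replicate 3 (median 1.62 CPM). Fgfr3-WT replicate 2 was also the clone with Ptgds at 32.6 TPM.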

How the results depend on the processing

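The counts of genes called between cKO and Fgfr3-WT, and for P28 and P4M against Fgfr3-WT, stayed within 1.5 times under the alternatives run. The 1254 genes called between P4M and P28 became 2814 with DESeq2, 3051 when only the compared groups were fitted, and 480 to 2132 when 1 clone was left out. Under DESeq2 the calls between P4M and P28 went from 3 to 6 in the substrate list and from 2 to 4 among the regulators of Ptgs2 and Ptges. Left-out clones moved the rank of Ptgis by mean TPM among the 10 members from 8 to between 6 and 8 in Fgfr3-WT and left it at 1 in both cKO groups. Of the 5 genes most like Ptgis, 1 was shared under Spearman's rho and 2 without a minimum level.

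The difference of Ptgis between P4M and P28 changed sign to -0.02 without P28 replicate 4, -0.03 without replicate 5, -0.14 without P4M replicate 2, and -0.35 without P28 replicates 4 and 5 together, an alternative added after seeing the data. Its highest value with 1 clone removed was 0.434, without P4M replicate 3. The cause was not tested. Without those 2 clones Ptgs1 was called higher in P4M (adjusted p = 0.047, edgeR). Ptgfr against Fgfr3-WT depended on Fgfr3-WT replicate 2, without which the log2 fold change was 4.08 for P28 and 2.15 for P4M. Between P4M and P28, the calls of Pla2g4a, Pla2g3, Akr1b7, Pde3a, Prkar1a, Nr4a1 and Zfp36 were each lost without P28 replicate 1 or 3 and without P4M replicate 2 or 4, with adjusted p values of at most 0.136 in edgeR. In cKO against Fgfr3-WT, Cebpb was lost without Fgfr3-WT replicate 5, Tsc22d3 without replicate 4, Cebpd without replicate 3 or 4 or P4M replicate 1, and Egr1 and Il1r1 without most single clones of each group. No paired analysis was possible because clones were only numbered in order inside their group and the labels pair none. Depth limits Ptgir, Ptger2 and, in P4M clones, Ptges and Hpgd.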
